A study of Mus musculus with 6 samples.

Results

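PGC-1alpha (Ppargc1a) is a transcriptional coactivator best known for switching on mitochondrial and heat-producing genes in brown fat, and the cells compared here either carried it or lacked it. The members were the 4 arrays of the 2 groups, chosen by their titles, out of 6 arrays in the series: 2 arrays of wild-type (WT) brown adipocytes and 2 arrays of PGC-1alpha -/- brown adipocytes expressing a control siRNA (knockout-control). Both kinds of cell were immortalized with the SV40 large T antigen and were taken on day 7 of differentiation, and the design text calls the replicates biological. The titles of the WT arrays name no siRNA, a passage number (4) is given for WT only, and 1 WT label mentions a mouse of mixed background. Genotype, cell line and siRNA vector therefore differ together and cannot be told apart in any value below. The other 2 arrays, of knockout cells with an siRNA against PGC-1beta, entered the model through the shared estimate of the spread. They also entered the mean that chose each gene's probe set and left out dim genes.

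Cells meet stress through a small number of gene programmes. NRF2 switches on glutathione and detoxification genes, hypoxia-inducible factors are degraded by oxygen-sensing EGLN enzymes and otherwise switch on genes for low oxygen, p53 answers DNA damage, and ATF4, XBP1 and HSF1 answer amino acid shortage, misfolded protein in the endoplasmic reticulum and heat. The glucocorticoid receptor is a nuclear receptor for stress hormones and is also used in the test tube, since synthetic glucocorticoids are a common part of adipocyte differentiation media. The labels do not give the medium used here. PGC-1alpha itself is widely described as a link between mitochondrial activity and antioxidant genes, which is the background for looking at stress genes beside the mitochondrial ones.

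The knockout was first checked on its own gene. The brightest of 5 Ppargc1a probe sets read 1338 and 1319 on the 2 WT arrays and 767 and 830 on the 2 knockout-control arrays. All 5 probe sets were lower in knockout-control, at 0.553 to 0.617 of the WT mean, and in none did the groups overlap. Such a fall without overlap was seen for 30.1% of all genes, and the 5 probe sets read the same arrays. The brightest fell by 0.71 on the log2 scale (SE 0.24), which did not pass the limma test over all genes (adjusted p = 0.125). The labels give neither the deleted part of the gene nor the position of the probes, so the remaining signal does not check the genotype. Ppargc1b, the related coactivator PGC-1beta, read 2850 and 3162 in WT and 1862 and 2302 in knockout-control, a ratio of 0.693 that did not pass either (adjusted p = 0.397).

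The label of brown adipocyte was then checked. Ucp1, the uncoupling protein that makes brown fat produce heat, read 4488 and 4761 in WT and 4199 and 3725 in knockout-control (adjusted p = 0.546). Fabp4, a fatty acid carrier abundant in adipocytes, read 15152 and 15220 in WT and 15531 and 14787 in knockout-control. None of the 9 brown adipocyte markers tested was called, with log2 differences from -0.40 (Cox7a1) to 0.36 (Pparg) by the probe set chosen for each gene. Other probe sets differed more for Prdm16, a regulator of brown fat identity (-1.16 and -1.04), and for Fabp4 (-0.58). The summed intensity of the 9 markers was 57803 and 57744 in WT and 55269 and 52747 in knockout-control. Macrophage (7 tested), endothelial (2) and skeletal muscle (5) markers gave no call. With 6.05% of all genes called, no call in lists this short says little. In the longer thermogenesis list below, 10 of 21 genes (47.6%) were called, 4 higher and 6 lower, with the brown fat genes Zic1 and Ebf2 among the lower. Of 11 preadipocyte and fibroblast markers Klf2 and Gata3 were called higher, and of 7 smooth muscle and pericyte markers Tagln, Cspg4 and Acta2 were called lower, of which Klf2 and Tagln alone were called whichever array was left out. In such bulk samples fewer cells of a type and less RNA per cell cannot be told apart.

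Some sex-linked transcripts separated the 2 groups. Eif2s3y, on the Y chromosome, read 872 and 961 in WT, while 1 knockout-control array had no number and the other read 6.25. The brightest probe set of Xist, the RNA that silences an X chromosome, read 57.9 and 116 in WT and 3409 and 4307 in knockout-control, while another Xist probe set read 196 and 199 in WT and 231 and 253 in knockout-control. A further Xist probe set had no number on either WT array and read 1230 and 1648 in knockout-control. The 2 sex-linked genes tested, Uty and Usp9y, were not called, and their groups overlapped. Xist was bright enough, but the probe set chosen for it was the one without a number on either WT array. It was therefore not tested. The probe set chosen for Uty read 479 and 433 in WT and 417 and 464 in knockout-control. Another Uty probe set read 277.9 and 295.2 in WT and 49.08 and 17.76 in knockout-control, while the dimmer ones showed no such fall. A probe set of Kdm5d read 204.5 and 217.8 in WT and 30.6 and 25.08 in knockout-control, while another Kdm5d probe set overlapped. The 2 lines thus differed in these sex-linked RNAs as well as in genotype and vector, and the share of this difference in the results below was not tested.

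Of 18193 genes with a named probe set, 13652 were bright enough to be tested. In the limma fit 826 of them (6.05%) were called at an adjusted p under 0.05, of which 348 (2.55%) were higher and 478 (3.5%) were lower in knockout-control. On the log2(intensity + 32) scale 156 rises and 196 falls were at least 2-fold. Folds below are on this scale too, so for dim genes they are smaller than the ratio of the intensities printed beside them. The median gene changed by 0 and the central 50% of genes lay between -0.21 and 0.18. An unadjusted p under 0.05 was found for 2889 genes where 683 are expected by chance. The groups of 2 arrays did not overlap for 58.1% of genes (28% higher and 30.1% lower), so lack of overlap on its own is common here.

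Differences between arrays bear on all counts. Knockout-control array 1 lay below array 2 for 9440 of 13562 genes (69.6%), with a median log2 difference of -0.12, while WT array 1 lay below array 2 for 56.8%. Among the genes called lower, knockout-control array 1 was the lower array for 88%. The count of 826 dropped to 240 or 235 when WT array 1 or 2 was left out and to 237 or 342 when knockout-control array 1 or 2 was, and 181 genes were called in all 6 fits that left out 1 array. Fitted on the 4 arrays alone, with the genes and probe sets chosen on all 6, 1786 genes were called. These included all 826. Leaving out a knockdown array amounts to this fit, since 1 remaining knockdown array adds nothing to the spread. Those 2 of the 6 fits therefore could not lose a call, and only leaving out 1 of the 4 compared arrays could. Below, a gene said to keep its call was called in all 6 fits that left out 1 array. Counts "with 1 array left out" are given in the order WT array 1, WT array 2, knockout-control array 1, knockout-control array 2.

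**Figure D1:**
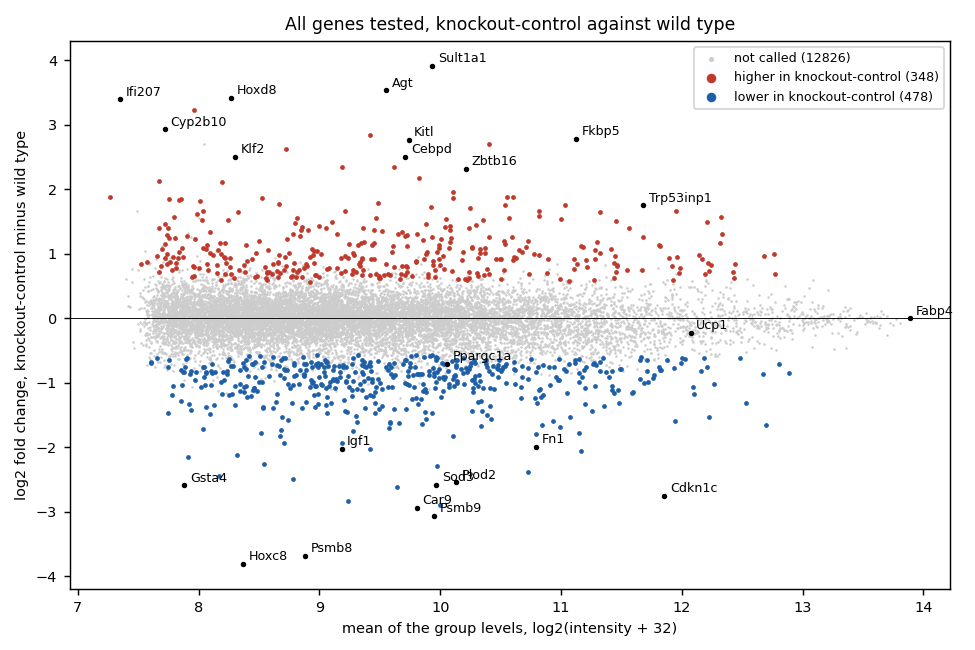
Each point is 1 of the 13652 genes tested, with its mean level, log2(intensity + 32), on the horizontal axis and the log2 fold change of knockout-control minus wild type on the vertical axis. Red points are the 348 genes called higher, blue points the 478 called lower, grey points are not called, and black points carry the name of a gene in the text; Fabp4 lies at 0 while Sult1a1 lies at 3.91 and Hoxc8 at -3.81.

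The gene that rose most, Sult1a1, a cytosolic sulfotransferase that conjugates phenols, read 193 and 249 in WT and 3802 and 3715 in knockout-control, a 15.1-fold rise (log2 change 3.91, SE 0.16, adjusted p = 6.06e-05). Agt, the precursor of angiotensin, read 164 and 215 in WT and 2588 and 2434 in knockout-control, an 11.5-fold rise. Elovl3, a fatty acid elongase of brown fat, read 240 and 209 in WT and 1686 and 1903 in knockout-control. In WT these 3 genes read close to the array median or below it, and in knockout-control far above it, with no overlap.

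Other genes among the 25 with the largest rise covered signalling, metabolism and position along the body. Kitl, the ligand of the Kit receptor, rose 6.81-fold, from 300 and 291 to 2166 and 2232. Cyp2b10, a drug-metabolizing cytochrome P450 of the liver, rose 7.59-fold from 31 and 59.6 to 544 and 545, and Rarres1, a gene first described as retinoic acid responsive, rose 9.33-fold from 39.2 and 59.6 to 630 and 825. Apoc3 (an apolipoprotein), Amy1 (an amylase), Rnf144b (a ubiquitin ligase), Fbxo31 (an F-box protein), Map7d2, Irx2, Tmem182, Adgrg2, Car5b (a mitochondrial carbonic anhydrase) and Pank1 (which makes coenzyme A precursors) rose 3.57-fold to 5.06-fold. All genes in this paragraph kept their call with any 1 array left out.

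Among the 25 genes that fell most, Hoxc8, a homeobox gene, read 1153 and 1234 in WT and 41.9 and 71.8 in knockout-control, a 14-fold fall (log2 change -3.81, SE 0.19, adjusted p = 8.35e-05). Ptp4a3, a protein tyrosine phosphatase, fell 7.45-fold from 2819 and 2679 to 302 and 386. Hmgn3, a nucleosome-binding protein, fell 6.15-fold from 1944 and 1935 to 249 and 334. In these 3 genes both knockout-control arrays stood far below both WT arrays. Grb14, an adaptor of the insulin receptor, fell 5.62-fold, and Rasd1, a small GTPase known to be induced by dexamethasone, fell 5.44-fold from 696 and 577 to 75 and 108. Cela1, Medag, Mgarp, Maob (monoamine oxidase B), Pltp (a phospholipid transfer protein), Arap1, Lipo3 and Ifi27l2b fell 3.81-fold to 4.91-fold, and only Lipo3 among them lost its call in 1 of the 6 fits with an array left out.

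Over all 13 stress lists together, 29 of 319 tested genes rose and 32 fell, so 61 (of 365 listed and 343 on the array) were called against 6.05% of all genes. Their median log2 change was -0.01, close to that of all genes, and 21 kept their call. With 1 array left out 27, 29, 28 and 38 were called, and on the 4 arrays alone 93 were. The calls differed in direction: those in the glucocorticoid list were all higher, those in the hypoxia list all lower, and those in the NRF2 list lower but for 1. The share called was 42.9% in the glucocorticoid list, 16.7% in the heat shock list, 10.7% in the unfolded protein response, 3.45% in the integrated stress response and 0% among apoptosis regulators. Differences between lists were not tested.

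**Figure D2:**
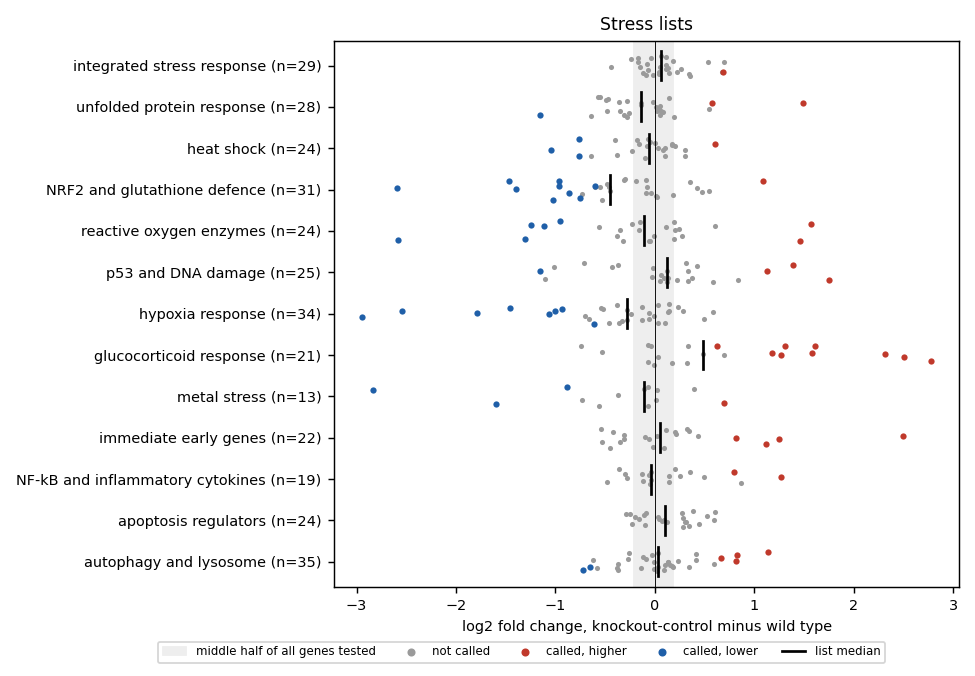
The log2 fold change of knockout-control minus wild type (horizontal axis) of each tested gene in the 13 stress lists (vertical axis, with the number tested). Red points were called higher, blue lower and grey not called, black ticks are list medians and the shaded band holds the central 50% of all genes (-0.21 to 0.18); the median tick stands at 0.48 for the glucocorticoid list, at -0.45 for the NRF2 list and at -0.28 for the hypoxia list.

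Of 21 glucocorticoid-responsive genes tested, 9 rose in knockout-control and none fell, where 2.55% of all genes rose, and the list's median log2 change was 0.48 against 0 for all genes. Fkbp5, a chaperone partner of the glucocorticoid receptor that feeds back on it, read 794 and 850 in WT and 6023 and 5618 in knockout-control, a 6.85-fold rise (log2 change 2.78, SE 0.15, adjusted p = 0.000138). Zbtb16, the transcription factor PLZF, read 480 and 521 in WT and 2556 and 2685 in knockout-control, a 4.99-fold rise. Cebpd, an early transcription factor of adipocyte differentiation, read 314 and 322 in WT and 1673 and 2282 in knockout-control, a 5.68-fold rise. In all 3 the gap between the groups was far wider than the gap within either pair.

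The remaining called members were smaller in size. Tsc22d3, which encodes GILZ, an inhibitor of inflammatory signalling, read 1059 and 960 in WT and 2808 and 3354 in knockout-control, with 2 of its 3 other probe sets higher as well and a dimmer one at -0.41. Nfkbia, the inhibitor of NF-kB, read 2022 and 2148 in WT and 4796 and 5325 in knockout-control. Errfi1, a feedback inhibitor of the EGF receptor, read 410 and 405 in WT and 913 and 1017 in knockout-control. Sgk1, a kinase that acts on ion transport, read 139 and 87.6 in WT and 335 and 490 in knockout-control, and Glul (glutamine synthetase) rose 1.54-fold. Klf9, a Krüppel-like factor, read 3066 and 3413 in WT and 8068 on the single knockout-control array with a number, and 5 of its 6 other probe sets moved the same way (log2 changes 1.19 to 1.74) while the sixth, a dim one, read -0.25. Fkbp5, Cebpd, Zbtb16, Tsc22d3, Nfkbia and Errfi1 kept their call, and with 1 array left out 7, 6, 7 and 7 members were called.

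The receptor itself did not rise. Nr3c1, the glucocorticoid receptor, read 1508 and 1712 in WT and 866 and 1043 in knockout-control, a fall of 0.74 on the log2 scale that missed the threshold (SE 0.18, adjusted p = 0.0524). Of its 5 other probe sets, 4 were lower as well and a dim one was higher at 0.48. Mt1 and Mt2 are metallothioneins that glucocorticoids and metals both induce. Mt1 read 13659 and 14033 in WT and 13324 and 13020 in knockout-control, near the top of the array's range. By the probe set chosen for each, both genes differed by -0.07, while the other Mt1 probe set above the filter differed by 0.38. Rasd1, described above as falling 5.44-fold, was not on the list. The list thus rose in part, with 12 of 21 members not called.

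The DNA sequence before the start of Sgk1 is shown because it was the only called member with a full palindromic glucocorticoid receptor site, searched as GNACA and TGTNC with 3 bases between them (a pattern that reads alike on both strands), in the 250 bases before its start. Of 7 called members with a RefSeq promoter in the gene table, 1 held the site. Of 10 tested members that were not called 1 did (Mt1), against 0.44% of 27025 genes with a promoter window. The site, in capitals, starts 188 bases before the Sgk1 start (build GRCm38.p6, chr10:21993640-21993889, + strand). A match describes letters only, and sites farther from the start were not searched.
Sgk1: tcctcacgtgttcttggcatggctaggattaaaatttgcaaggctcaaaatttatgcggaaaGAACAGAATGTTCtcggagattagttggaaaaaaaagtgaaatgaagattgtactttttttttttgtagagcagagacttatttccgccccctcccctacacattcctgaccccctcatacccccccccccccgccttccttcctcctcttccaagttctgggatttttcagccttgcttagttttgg

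Of 34 genes of the hypoxia response tested, 8 fell in knockout-control, none rose and 26 were not called, where 3.5% of all genes fell, and the list's median was -0.28. Car9, a cell-surface carbonic anhydrase widely used as a hypoxia marker, read 2293 and 2572 in WT and 229 and 360 in knockout-control, a 7.69-fold fall (log2 change -2.94, SE 0.23, adjusted p = 0.000417). Plod2, a lysyl hydroxylase that prepares collagen for cross-linking, read 2659 and 2651 in WT and 342 and 533 in knockout-control, a 5.84-fold fall. Ndrg1, a hypoxia-induced growth regulator, read 3771 and 4075 in WT and 656 and 1878 in knockout-control. Car9 and Plod2 kept their call, while the 2 knockout-control arrays lay far apart for Ndrg1.

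The list's other called members take part in sensing and using oxygen. Slc16a3, the lactate exporter MCT4, read 1476 and 1543 in WT and 453 and 621 in knockout-control. Egln3 and Egln1, oxygen-dependent hydroxylases that mark hypoxia-inducible factors for destruction, fell 2.09-fold (from 6095 and 6363 to 2489 and 3542) and 1.53-fold (from 4795 and 5245 to 3064 and 3489). Epas1, which encodes HIF-2alpha, fell 2.01-fold, and Lox, a collagen cross-linking enzyme, fell 1.91-fold. Hif1a, which encodes HIF-1alpha, read 2025 and 2019 in WT and 1601 and 1825 in knockout-control (log2 change -0.24, adjusted p = 0.566). In all 8 called genes knockout-control array 1 was the lower of its pair, as it was for 69.6% of all genes. With 1 array left out 3, 3, 2 and 7 members were called lower, and without knockout-control array 1 a further member was called higher.

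The promoters of the 4 called hypoxia genes that have one in the RefSeq table are shown because each held the core of a hypoxia response element, searched as ACGTG on both strands (its reverse complement is CACGT). Of the 24 tested members that were not called and have a window, 14 held it too, against 18.49% of 27025 genes with a window. The core thus did not set the called genes apart from the rest of the list. Capitals mark the core. The windows lie 250 bases before the start on build GRCm38.p6, for Car9 at chr4:43506776-43507025 (+ strand), for Slc16a3 at chr11:120948817-120949066 (+), for Egln1 at chr8:124949255-124949504 (- strand) and for Egln3 at chr12:54203875-54204124 (-).
Car9: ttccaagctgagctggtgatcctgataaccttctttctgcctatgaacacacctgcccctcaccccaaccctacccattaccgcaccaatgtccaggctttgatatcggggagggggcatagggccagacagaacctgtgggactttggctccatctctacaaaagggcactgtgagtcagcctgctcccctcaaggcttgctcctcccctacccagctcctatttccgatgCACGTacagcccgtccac
Slc16a3: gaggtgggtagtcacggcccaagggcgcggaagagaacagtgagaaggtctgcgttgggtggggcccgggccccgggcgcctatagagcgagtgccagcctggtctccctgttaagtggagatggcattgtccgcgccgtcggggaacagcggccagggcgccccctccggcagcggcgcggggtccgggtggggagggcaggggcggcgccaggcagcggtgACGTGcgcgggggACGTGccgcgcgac
Egln1: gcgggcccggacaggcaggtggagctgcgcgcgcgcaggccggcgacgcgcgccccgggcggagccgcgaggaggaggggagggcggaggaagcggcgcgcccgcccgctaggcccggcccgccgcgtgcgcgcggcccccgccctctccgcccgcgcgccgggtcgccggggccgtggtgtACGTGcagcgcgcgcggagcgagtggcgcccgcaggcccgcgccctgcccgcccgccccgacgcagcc
Egln3: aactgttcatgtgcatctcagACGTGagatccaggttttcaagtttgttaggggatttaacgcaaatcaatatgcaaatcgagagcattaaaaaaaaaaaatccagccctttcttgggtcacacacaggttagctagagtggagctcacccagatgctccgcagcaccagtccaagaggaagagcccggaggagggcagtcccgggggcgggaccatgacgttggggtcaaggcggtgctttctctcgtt
The core stands 18 bases before the Car9 start, 27 and 14 bases before that of Slc16a3, 68 before that of Egln1 and 229 before that of Egln3.

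Of 31 genes of NRF2 and glutathione defence tested, 9 fell, 1 rose and 21 were not called, with a median of -0.45, the lowest median among the 13 stress lists. Gsta4, a glutathione transferase that clears the lipid peroxidation product hydroxynonenal, read 520 and 567 in WT and 49 and 80.4 in knockout-control, a 6.03-fold fall (log2 change -2.59, SE 0.25, adjusted p = 0.00105). Gclc, the catalytic subunit of the enzyme that starts glutathione synthesis, read 1538 and 1625 in WT and 458 and 660 in knockout-control. Gstt1, another glutathione transferase, read 566 and 564 in WT and 171 and 223 in knockout-control. Gsta4 and Gstt1 kept their call with any 1 array left out.

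Abcc1 and Abcc4, which export glutathione conjugates and other organic anions, fell 2.04-fold and 1.96-fold. Ephx1 (microsomal epoxide hydrolase) fell 1.95-fold, Nqo1 (a quinone reductase and standard NRF2 target) 1.82-fold, Srxn1 (sulfiredoxin) 1.69-fold and Gsr (glutathione reductase) 1.52-fold. Srxn1 had 3 other probe sets, of which 2 were lower and 1 higher. Gsta3 was the one member to rise, from 118 and 138 to 296 and 320. In all 9 lower genes knockout-control array 1 was below array 2, and 3, 3, 2 and 7 were called lower with 1 array left out. Nfe2l2, the gene of NRF2, read 2244 and 2359 in WT and 1454 and 1895 in knockout-control (adjusted p = 0.27). Hmox1, haem oxygenase, read 3521 and 3585 in WT and 1531 and 2943 in knockout-control (adjusted p = 0.176), a wide spread within the knockout-control pair. An antioxidant response core, searched as TGACNNNGC on both strands, was present in 2 of 6 called members with a window (Abcc4 and Gsta3). It was present in 4 of 20 that were not called, and in 11.52% of all genes with a window.

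**Figure D3:**
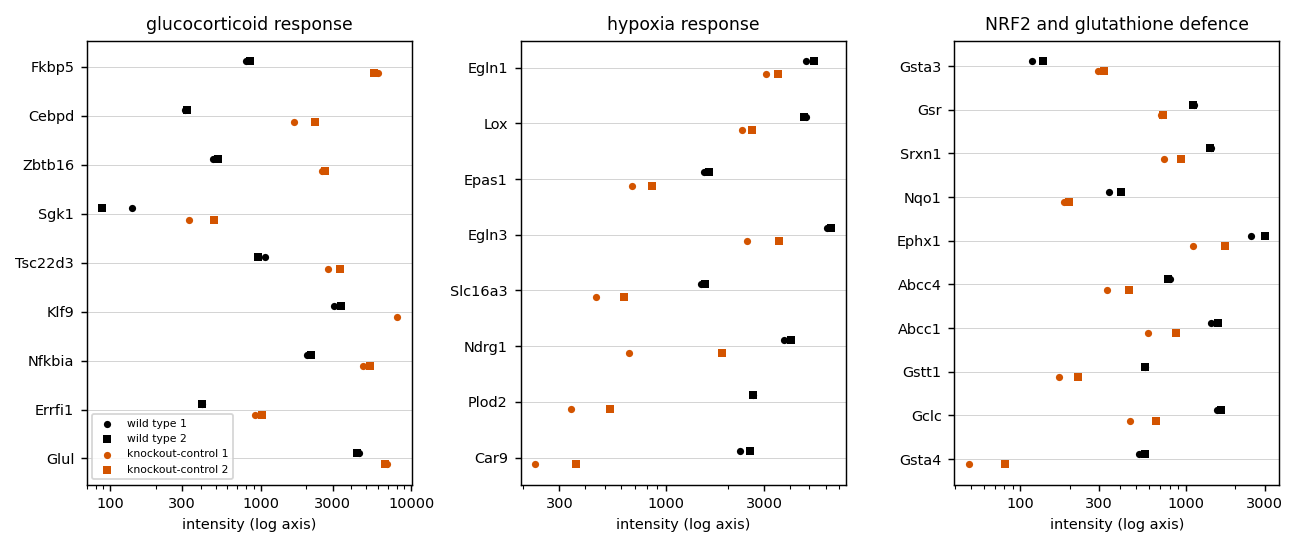
Intensity on a log axis for the called members of the glucocorticoid, hypoxia and NRF2 lists on each of the 4 arrays, with black symbols for wild type and orange for knockout-control (circles array 1, squares array 2). No pair of groups overlaps; the Car9 points stand at 2293 and 2572 (black) against 229 and 360 (orange), and Klf9 has 1 knockout-control value only.

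Enzymes that handle reactive oxygen changed in both directions: of 24 tested, 5 fell and 2 rose, with a median of -0.11. Sod3, the secreted superoxide dismutase, read 2446 and 2393 in WT and 358 and 395 in knockout-control, a 6.01-fold fall (log2 change -2.59, SE 0.15, adjusted p = 0.000138). Gpx1, the cytosolic glutathione peroxidase, read 3981 and 4020 in WT and 1762 and 1907 in knockout-control. Gpx7, a peroxidase of the endoplasmic reticulum, fell 2.47-fold, Sesn3 (a sestrin) 2.37-fold and Selenow (selenoprotein W) 1.94-fold. Txnip, which binds and inhibits thioredoxin and limits glucose uptake, rose from 2723 and 3176 to 8641 and 9007, and Sesn1, another sestrin, rose from 513 and 560 to 1398 and 1669, with 1 of its 3 other probe sets at -0.11. The pair of sestrins thus moved in opposite directions. All of these but Sesn3 and Selenow kept their call, and 4, 4, 3 and 5 were called lower with 1 array left out.

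Sod3 lies on chromosome 5 among the 10 tested genes on either side of Ppargc1a, and it was the 1 of those 20 neighbours that was called. Over 50 genes on each side, 4 of 100 were called (Sod3 lower, Acox3, Cpeb2 and Tapt1 higher), which is 4% against 6.05% of all genes.

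Of the p53 and DNA damage list, 3 of 25 rose and 1 fell (16% called, against 6.05% of all genes). Cdkn1a, the cell cycle inhibitor p21, read 1830 and 1846 in WT and 4754 and 5005 in knockout-control, a 2.63-fold rise (adjusted p = 0.00123). A second Cdkn1a probe set read 1889 and 2070 in WT and 1538 and 2030 in knockout-control, so the gene's probe sets disagreed. Trp53inp1, a p53-induced nuclear protein, read 1726 and 1785 in WT and 5985 on the single knockout-control array with a number, and its other probe set rose from 385 and 335 to 2018 and 1941. Gadd45b, a stress sensor, rose 2.19-fold, and Phlda3, an inhibitor of AKT induced by p53, fell from 4740 and 4384 to 2109 and 1953. Called members of the list therefore did not move one way. Trp53 was not among the genes tested. Cdkn1a and Phlda3 kept their call, and with 1 array left out 2 rose and 1 fell in each case.

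In the integrated stress response, the answer to amino acid shortage, 1 of 29 genes (3.45%, against 6.05% of all genes) rose (Gpt2, an alanine aminotransferase, 1.61-fold) and none fell. Atf4, its central transcription factor, read 3529 and 3866 in WT and 3347 and 4377 in knockout-control (log2 change 0.05), and Ddit3, which encodes CHOP, read 2568 and 2712 in WT and 2479 and 3601 in knockout-control (0.18). For both the groups overlapped. Gpt2 lost its call when any 1 of the 4 arrays was left out.

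In the unfolded protein response 2 of 28 rose and 1 fell (10.7% called). Ern1, the sensor IRE1alpha, read 242 and 352 in WT and 727 and 1053 in knockout-control, a 2.8-fold rise (adjusted p = 0.00758), and 2 other Ern1 probe sets above the filter differed by 0.10 and 0.18 only. Herpud1, which helps remove misfolded protein, rose 1.49-fold. Manf, a secreted protein of the endoplasmic reticulum, fell 2.23-fold from 4073 and 4117 to 1517 and 2172. Hspa5, the main chaperone BiP, read 7156 and 7329 in WT and 4720 and 5772 in knockout-control and was not called (adjusted p = 0.151). The 4 probe sets of Xbp1, whose messenger Ern1 splices, differed by -0.09 to 0.02, and these do not measure splicing. Without knockout-control array 2 none of the 3 was called.

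In the heat shock list, with 16.7% called, 1 of 24 rose (Hspb1, a small heat shock protein, 1.52-fold) and 3 fell: Hspb8 from 2666 and 2735 to 1038 and 1608, Serpinh1, the collagen chaperone, from 5268 and 4858 to 2749 and 3186, and Dnajb4 1.7-fold. Hspa1a, an inducible HSP70, was dim at 211 and 223 in WT and 95.9 and 166 in knockout-control and was not called (adjusted p = 0.112). No heat shock gene kept its call: none was called without either WT array or without knockout-control array 1, and 2 were without knockout-control array 2. None of 24 apoptosis regulators was called by the limma model on 6 arrays, 6 had an unadjusted p under 0.05, and 2 were called on the 4 arrays alone. Fgf21 and Gdf15, secreted stress factors, were not among the genes tested.

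In the metal stress list 1 of 13 genes rose and 3 fell, and all 4 handle iron. Tfr2, a transferrin receptor best known as an iron sensor of the liver, read 1477 and 1668 in WT and 162 and 227 in knockout-control, a 7.15-fold fall (adjusted p = 0.000138). Tfrc, the transferrin receptor that takes up iron, read 7588 and 6114 in WT and 2269 and 2198 in knockout-control, a 3.02-fold fall. Slc40a1, the iron exporter ferroportin, fell 1.85-fold, and Slc39a14, which imports zinc and iron, rose 1.62-fold by 1 probe set while others differed by -0.06 and 0.17. The 3 genes that fell thus serve both uptake and export. Tfr2 and Tfrc kept their call, and 2, 2, 2 and 4 genes were called lower with 1 array left out.

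Immediate early genes, which respond within minutes to stimuli, held 4 higher genes of 22 (18.2%, where 6.05% of all genes were called) and no lower one. Klf2, a Krüppel-like factor, read 99.4 and 100 in WT and 575 and 879 in knockout-control, a 5.64-fold rise (adjusted p = 0.000652). Fosl2 rose from 553 and 642 to 1212 and 1760, Klf6 from 502 and 578 to 1120 and 1309, and Egr1 from 623 and 858 to 1186 and 1457. Only Klf2 kept its call (1, 3, 3 and 1 called with 1 array left out). Of 19 NF-kB and cytokine genes 2 rose (10.5% called), both of them inhibitors of the pathway. These were Nfkbia, given above, and Tnfaip3, the deubiquitinase A20, from 184 and 215 to 325 and 420. Tnfaip3 lost its call when any 1 of the 4 arrays was left out. Of 35 autophagy and lysosome genes 4 rose and 2 fell (17.1% called). Gabarapl1, which decorates autophagosomes, rose 2.2-fold from 2275 and 2498 to 5118 and 5435, Ctsl (cathepsin L) 1.78-fold, Npc1 (lysosomal cholesterol export) 1.76-fold and Ulk2 (a starter kinase of autophagy) 1.59-fold, while Glb1 and Ctsk fell 1.65-fold and 1.57-fold. Of these only Gabarapl1 kept its call, and it alone was called without any 1 of the 4 arrays.

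Of 34 genes tested in the merged list of interferon response and antigen presentation, 9 fell, 1 rose and 24 were not called, with a median of -0.27. Psmb8, a catalytic subunit of the immunoproteasome, read 1733 and 1571 in WT and 83.8 and 116 in knockout-control, a 12.9-fold fall (log2 change -3.69, SE 0.23, adjusted p = 0.000138). Psmb9, a second such subunit, read 2900 and 2715 in WT and 263 and 361 in knockout-control, an 8.34-fold fall. Tap1 and Tap2, which carry peptides into the endoplasmic reticulum, fell 2.49-fold (from 1026 and 1125 to 359 and 473) and 2.12-fold. Psmb8, Psmb9, Tap1 and Tap2 are neighbours in the class II region of the mouse major histocompatibility complex.

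Genes of the presenting molecules were among those called. H2-K1 and H2-D1, class I heavy chains, fell from 8320 and 7863 to 2818 and 2739 and from 9443 and 9167 to 3655 and 3759, and as close copies of each other they may share probes. B2m, their light chain, fell from 10150 and 10134 to 5336 and 5904. Ifnar1, a receptor subunit for type I interferon, fell 2.2-fold and Ifit2, an interferon-induced gene, 2.29-fold. Ifngr1, a receptor subunit for interferon gamma, was the one to rise, from 749 and 801 to 2616 and 3301. Psmb8, Psmb9, H2-K1, H2-D1 and Ifngr1 kept their call, and 5, 6, 4 and 8 genes were called lower with 1 array left out.

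Psmb9 and Tap1 start within 225 bases of each other on opposite strands, and the stretch between their starts is shown because both genes fell. It lies at chr17:34187331-34187555 of build GRCm38.p6, printed from the + strand, and holds no match to a STAT site searched as TTCNNNGAA (the same on both strands, present in 7.02% of promoter windows). An interferon-stimulated element, searched as GAAA, any 2 bases and GAAA on both strands, was present in 1 of 9 called members with a window (B2m). It was present in 9 of 20 that were not called, against 3.46% of all genes with a window.
Psmb9-Tap1: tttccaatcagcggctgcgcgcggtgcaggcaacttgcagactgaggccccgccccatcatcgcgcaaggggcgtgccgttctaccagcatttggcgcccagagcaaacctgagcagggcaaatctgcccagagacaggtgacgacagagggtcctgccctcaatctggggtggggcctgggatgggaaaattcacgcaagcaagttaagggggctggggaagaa

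Of 12 listed genes of the p200 family of interferon-inducible DNA-binding proteins, 4 were tested. Of these, 2 were called higher and none lower, while 2 had a log2 change below 0. The 2 called genes lay under the filter intensity of 163.6 on both WT arrays. They passed the filter only through the arrays of knockout cells, where they were high, so their share of calls is not read as a result. Ifi207 read 28.7 and 8.06 in WT and 399 and 590 in knockout-control, and Mndal read 106 and 30.6 in WT and 308 and 458 in knockout-control. In WT both were dim, so the fitted changes (log2 3.39 and 2.13) depend on the number added before log2. Mndal lost its call without either knockout-control array. Members of this family are near copies that probes may not tell apart.

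**Figure D4:**
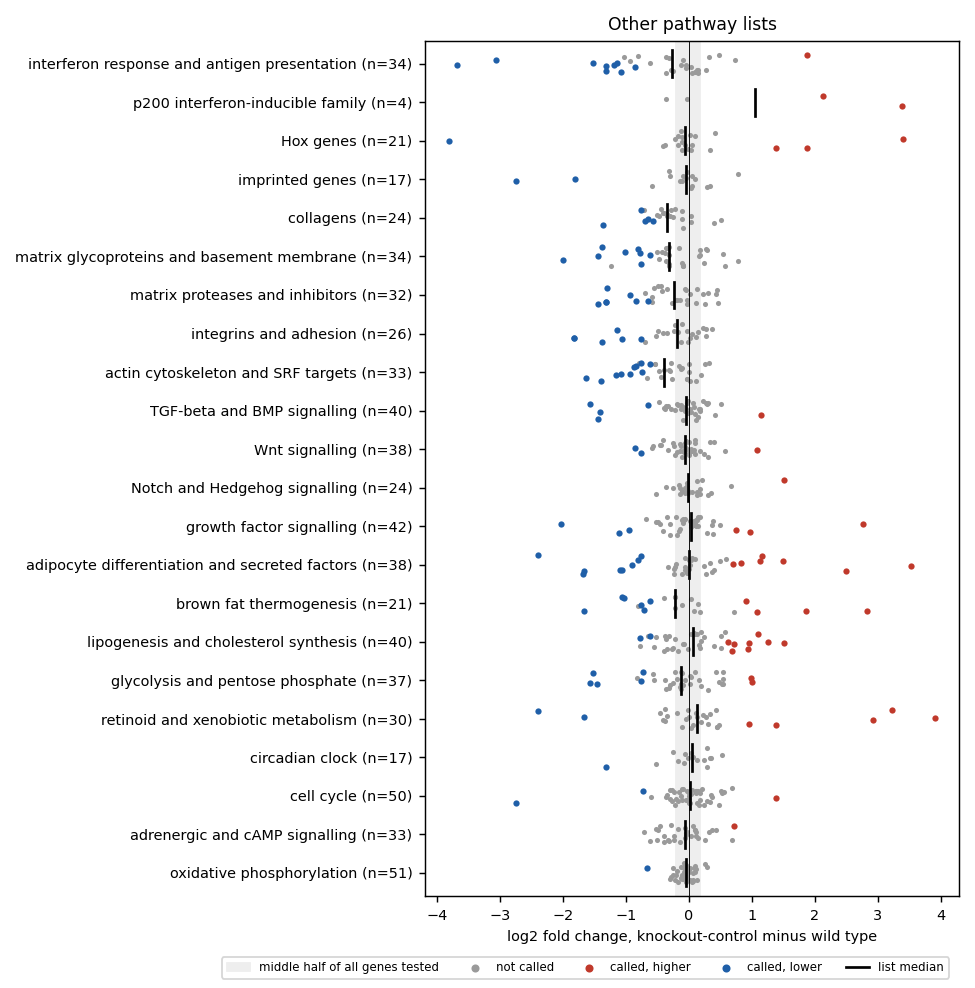
The log2 fold change of knockout-control minus wild type (horizontal axis) of each tested gene in the lists beyond the stress lists (vertical axis, with the number tested), with red points called higher, blue lower and grey not called. Black ticks are list medians and the shaded band holds the central 50% of all genes (-0.21 to 0.18); the ticks of the collagen list at -0.35 and the actin list at -0.39 lie left of the band.

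The 5 lists for the matrix and the cytoskeleton held called falls and no called rise, though most members were not called. Of 24 collagens 5 fell (20.8%, median -0.35), of 34 matrix glycoproteins 8 (23.5%, -0.32) and of 32 matrix proteases and inhibitors 7 (21.9%, -0.24). Of 26 integrins and adhesion genes 6 fell (23.1%, -0.19), and of 33 actin cytoskeleton genes and targets of SRF 10 (30.3%, -0.39). Over all genes 3.5% fell and 2.55% rose, so the lack of a called rise in lists this short says little. Fn1, fibronectin, read 3588 and 3408 in WT and 738 and 989 in knockout-control, a 3.98-fold fall (adjusted p = 0.000608). Col6a3, a chain of collagen VI, fell 2.56-fold from 4064 and 4264 to 1525 and 1690. Col1a1 and Col1a2, the chains of collagen I, fell 1.69-fold and 1.61-fold, and with 1 array left out Col6a3 alone among the collagens was called.

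Thbs1, thrombospondin 1, fell 2.71-fold from 2234 and 1748 to 697 and 723, and Efemp1, a fibulin, fell 2.61-fold. Timp3, an inhibitor of matrix metalloproteases, fell from 746 and 576 to 247 and 243, Htra1, a secreted serine protease, from 966 and 915 to 294 and 364, and Pcolce, which speeds collagen maturation, from 4429 and 4505 to 1723 and 1845. Gja1, the gap junction protein connexin 43, fell 3.56-fold from 2122 and 1950 to 476 and 631. Cd9, a tetraspanin, fell by the same factor from 738 and 735 to 162 and 208, and Cd44, the hyaluronan receptor, fell 2.6-fold. All genes in this paragraph but Efemp1 kept their call. With 1 array left out 2, 3, 2 and 4 matrix glycoproteins, 4, 4, 3 and 5 proteases and inhibitors, and 4, 3, 3 and 4 adhesion genes were called lower.

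Among actin and SRF genes, Ccn2, a growth factor of scars also called CTGF, read 1416 and 1353 in WT and 366 and 495 in knockout-control, a 3.09-fold fall (adjusted p = 0.00124). Tagln, an actin-binding protein of smooth muscle, fell 2.62-fold from 746 and 687 to 239 and 270. Actg1, cytoplasmic gamma actin, fell 1.82-fold from 8906 and 8641 to 4723 and 4866, and Flna, Vcl, Tpm1, Cald1, Tuba1a and Mrtfb fell 1.67-fold to 2.22-fold. Acta2, smooth muscle actin, fell 1.54-fold from 3392 and 2998 to 2067 and 2052, but averaged with its other probe sets, which are dim, it differed by 0.44 in the other direction and was not called (adjusted p = 0.179). The summed intensity of the 10 smooth muscle and pericyte markers on the array was 7531 and 6961 in WT and 5910 and 5749 in knockout-control. Its part in the lower actin genes was not tested. Ccn2 and Tagln kept their call, and 3, 2, 2 and 4 genes were called lower with 1 array left out.

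Growth factor and patterning genes changed in single members rather than as lists. Igf1, insulin-like growth factor 1, fell 4.08-fold from 1121 and 1163 to 238 and 275, and Nrp1 and Nrp2, coreceptors for VEGF and semaphorins, fell 1.93-fold and 2.15-fold. Kitl, given above, Igfbp3 and Insr, the insulin receptor, rose, so 3 of 42 growth factor genes rose and 3 fell (14.3% called). The 2 other Insr probe sets differed by 0 and 0.01. Of 40 TGF-beta and BMP genes 4 fell and 1 rose (12.5% called). The falls included Tgfbi (2.99-fold, from 669 and 742 to 193 and 238), Fstl1 (2.72-fold) and Fstl3 (2.67-fold, with no number on knockout-control array 1). Id1, a BMP target, rose 2.21-fold. Of 38 Wnt genes Dvl1 rose and Gsk3b and Fzd2 fell (7.89% called, against 6.05% of all genes). Of 24 Notch and Hedgehog genes only Hey2, a Notch target, was called (4.17%), rising 2.86-fold from 141 and 103 to 355 and 463. Of the genes in this paragraph Igf1, Kitl, Tgfbi, Fstl1 and Id1 kept their call.

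Hox genes, which record position along the body, differed in either direction. Hoxd8 read 53.5 and 72.3 in WT and 967 and 978 in knockout-control, a 10.6-fold rise, Hoxb5 rose 3.66-fold and Hoxd9 2.62-fold, while Hoxc8, given above, fell 14-fold. These 4 of 21 tested all kept their call. Of 17 imprinted genes tested 2 were called (11.8%), and both fell. Cdkn1c, a cell cycle inhibitor expressed from the maternal copy, read 9708 and 9404 in WT and 1246 and 1555 in knockout-control, a 6.73-fold fall (adjusted p = 0.000138), and Grb10, an adaptor that restrains insulin signalling, fell 3.49-fold from 3143 and 3379 to 800.4 and 1036. Of 50 cell cycle genes only Cdkn1a, Cdkn1c and Kif23 were called (6%, against 6.05% of all genes), and only the first was higher. Kif23 lost its call when any 1 of the 4 arrays was left out.

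Adipocyte genes changed in both directions, with 7 of 38 higher and 8 lower (39.5% called, against 6.05% of all genes). Retn, resistin, rose 2.81-fold from 2907 and 2642 to 8807 and 7001, and Lpin1, a phosphatidate phosphatase, rose 2.23-fold from 3211 and 3563 to 8013 and 7201. Rbp4, the retinol carrier, fell 3.16-fold from 11542 and 11862 to 3176 and 4258. Rarres2, the adipokine chemerin, fell 5.24-fold from 3800 and 3827 to 563 and 872, with 1 of its 2 other probe sets also lower and a dim one at 0.06. Sncg, gamma-synuclein, fell 3.21-fold from 3645 and 3590 to 1054 and 1162. These 5 kept their call, as did Agt and Cebpd, and 4, 4, 5 and 4 genes were called higher and 3, 3, 3 and 6 lower with 1 array left out.

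Of 21 thermogenesis genes 4 rose and 6 fell. Besides Elovl3, Pank1 rose 3.63-fold, Mpzl2 2.12-fold and Kcnk3, a potassium channel, 1.87-fold. Ckb, the creatine kinase of brown fat, fell 3.18-fold from 2325 and 2226 to 658 and 729, and Mb, myoglobin, fell 2.04-fold from 7134 and 6826 to 3028 and 3847, while its other probe set differed by -0.05. Zic1, a marker of classical brown fat, fell 2.09-fold from 2289 and 2341 to 970 and 1230, Ebf2, a brown fat transcription factor, 1.69-fold, Letmd1 1.65-fold and Elovl6 1.53-fold. Elovl3, Pank1 and Ckb kept their call. Of 51 genes of oxidative phosphorylation only Atp5g1 was called (1.96%, against 6.05% of all genes). It was lower, and its call was lost when any 1 of the 4 arrays was left out.

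Of 40 genes of fat and sterol synthesis 8 rose, 2 fell and 30 were not called, and the list's median was 0.07. Mlxipl, which encodes the glucose-sensing factor ChREBP, read 748 and 735 in WT and 2192 and 2177 in knockout-control, a 2.87-fold rise (adjusted p = 0.000675). Acacb, an acetyl-CoA carboxylase, rose 2.39-fold from 821 and 867 to 2060 and 2067 (0.29 on the log2 scale by its other probe set), and Acly, ATP citrate lyase, rose 1.94-fold. Mlxipl and Acacb kept their call and were the 2 members called with any 1 array left out. In glycolysis and the pentose phosphate pathway 2 of 37 rose and 5 fell. The isoforms of hexokinase moved apart: Hk1 fell 2.96-fold from 2339 and 2297 to 655 and 885, while Hk2 rose 2.02-fold from 1635 and 1915 to 3347 and 3871. Aldoc, an aldolase isoform, fell 2.86-fold, and Pcx, pyruvate carboxylase, rose 1.99-fold. Hk1 and Aldoc kept their call.

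Among 30 retinoid and xenobiotic genes 5 rose and 2 fell. Next to Sult1a1, Cyp2b10 and Rarres1 these were Fmo1, a flavin monooxygenase (2.62-fold, from 723 and 702 to 1876 and 1963) and Cyp2e1 (1.93-fold), with Rarres2 and Rbp4 lower, and all 7 but Cyp2e1 kept their call. Of 17 clock genes only Dbp was called (5.88%, against 6.05% of all genes), falling 2.5-fold from 1177 and 1593 to 419 and 663. Hlf, a related factor, has a probe set that read 680 and 757 in WT and had no number on either knockout-control array, so it was not tested. Of 33 adrenergic and cAMP genes only Rgs2, a brake on G protein signalling, was called (3.03%), rising 1.64-fold. Neither Dbp nor Rgs2 kept its call.

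Called genes were spread unevenly over chromosomes, a pattern that was looked for after the values had been seen. On chromosome 16, 57 of 458 tested genes fell and 7 rose, so 14% were called against 6.03% of the genes with a position, and the median log2 change was -0.14. On chromosome 9, 66 of 745 fell and 14 rose (10.7% called, median -0.12). On chromosome 15, 34 of 547 fell and 6 rose (7.31%, -0.13), and on X 26 of 427 fell and 10 rose (8.43%, -0.13). On chromosome 19 the direction was opposite, with 33 of 489 higher and 9 lower (8.59%, 0.14). Chromosome 13 had a median of 0.10 with 21 of 504 higher and 6 lower (5.36%), and chromosome 8 a median of -0.09 with 15 of 740 higher and 29 lower (5.95%), so their shares called were below that of all genes.

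These shifts were the same in sign for each pairing of a knockout-control with a WT array, at -0.22 to -0.11 for chromosome 16, -0.17 to -0.07 for chromosome 9 and 0.08 to 0.19 for chromosome 19. The 2 arrays of a group differed by -0.03 (WT) and -0.12 (knockout-control) on chromosome 16, while over all genes they differed by -0.02 and -0.12. With the tested genes of a chromosome split by position into 4 blocks of near equal number, the blocks of chromosome 16 held 11, 17, 18 and 11 lower genes and those of chromosome 9 held 7, 15, 23 and 21. In the knockdown arrays against WT, which use the same WT arrays, the medians were -0.21 on chromosome 16, -0.11 on chromosomes 9 and 15, -0.06 on X, 0.08 on chromosome 13 and 0.13 on chromosome 19, beside -0.10 on chromosomes 8 and 18 and -0.03 over all genes. With 1 array left out the number of lower genes on chromosome 16 ranged from 4 to 19 and on chromosome 9 from 12 to 24.

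Chromosomes 9, 15, 16 and X, picked after these calls were seen, together held 183 of 475 lower genes (38.5%), against which the lists above can be read. They held 745, 547, 458 and 427 of the 13625 tested genes with a position. On chromosomes 9, 15, 16 or X lay 5 of the 10 lower actin genes (Tagln, Tpm1, Mrtfb, Flna and Tuba1a), 3 of the 9 lower NRF2 genes (Gclc, Gsta4 and Abcc1), 2 of the 8 lower hypoxia genes (Plod2 and Ndrg1) and 3 of the 6 lower thermogenesis genes (Zic1, Letmd1 and Mb). Elovl3 and Pank1 lie on chromosome 19, as does Klf9, the only 1 of the 9 higher glucocorticoid genes on chromosome 13 or 19. Chromosomes 13 and 19, picked in the same way, together held 54 of 347 higher genes (15.6%). They held 504 and 489 of the 13625 tested genes. The part of a chromosome's shift in the change of any single gene was not tested.

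**Figure D5:**
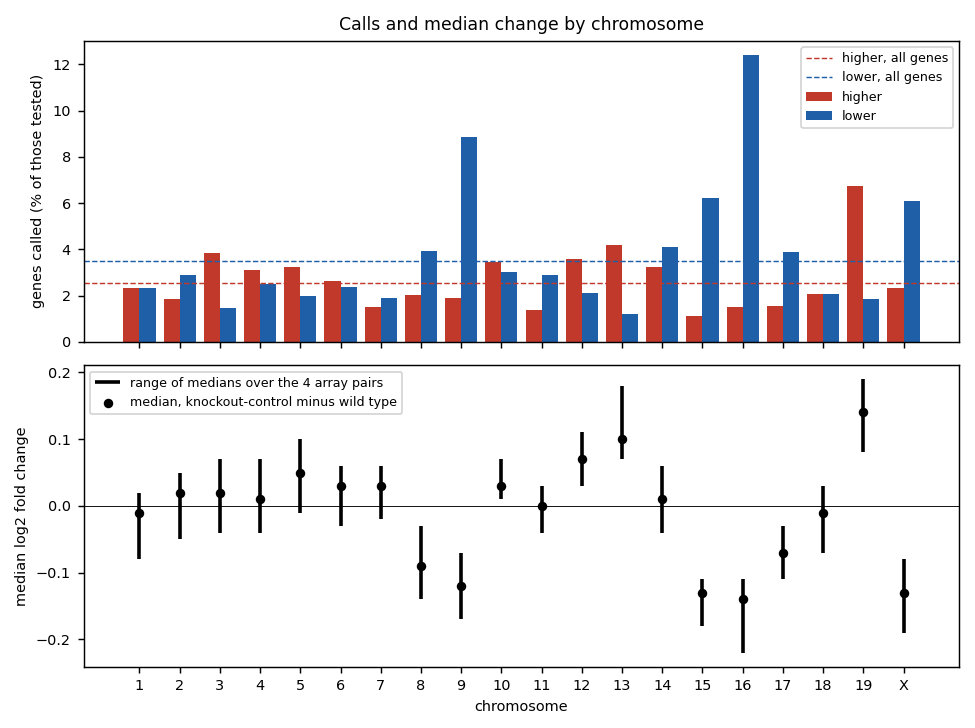
The upper panel gives the percentage of tested genes on each chromosome called higher (red bars) or lower (blue bars) in knockout-control, with dashed lines at the percentage over all genes. The lower panel gives the median log2 fold change per chromosome (points) with the range of the medians over the 4 pairs of 1 knockout-control and 1 wild-type array (lines); chromosome 16 stands at 12.4% lower and chromosome 19 at a median of 0.14.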

How the data were processed

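Biotin-labelled total RNA was measured on 1-colour oligonucleotide arrays. The authors deposited 1 linear intensity per probe set and array, in a table of 45037 probe sets. Summarisation software and scaling were not given in the sources used here. Array medians lay between 220.9 and 242.7, so the values were not scaled again. Cells without a number (5285 marked null and 870 empty) were kept as missing, which touched 90 tested genes (6 of them called) on the 4 arrays compared.

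Of the probe sets, 34945 carried 1 symbol in the platform annotation (34741 matched the RefSeq table of GRCm38.p6), 932 several and 9160 none. The probe set with the highest mean stood for its gene, and genes under the 40th percentile (intensity 163.6) were left out. One model of group means was fitted to log2(intensity + 32) of all 6 arrays with limma 3.58.1 in R 4.3.3 (5.47 prior and 3 residual degrees of freedom). A gene was called at an adjusted p under 0.05 (Benjamini-Hochberg over the 13652 genes tested), and all adjusted p-values are from this model unless said otherwise. Precision is limited by having 2 arrays a group: an exact permutation test then cannot go below p = 0.333, and none was used. The procedure was tested on simulated data.

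The comparison, the lists and their members were chosen with earlier results of these data known. Named genes were the 25 largest rises and 25 largest falls among called genes without overlap between groups, every called member of a stress list, up to 6 of each other list, and a fixed set of coactivators, adipocyte and stress genes. The lists of neighbours, chromosomes and single probe sets were added after the values had been seen. Alternatives covered the added number, the filter, scaling, probe set choice, arrays fitted, moderation, a replicate block and leaving out each array. Promoter sequences are the 250 bases before the start from RefSeq.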

Additional observations from a re-analysis of the deposited data

Results flagged for a closer look

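Probe sets without a gene name here took no part in the comparisons above. Of 4283 such probe sets above the filter, tested with the same limma model, 30 were called higher and 50 lower in knockout-control. That is 1.87%, below the 6.05% of named genes, and no gene can be given for them. Groups of 2 arrays are too small to single out 1 array as standing apart.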

How the results depend on the processing

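The direction of the 172 named genes that were called held under every alternative with 1 exception, Acta2, at 0.44 when probe sets of a gene were averaged. Counts moved more. Without a filter on dim genes 371 genes were called (173 higher, 198 lower, 31 in the stress lists). Quantile normalization gave 1660 (728 and 932), arrays centred on the median gave 725 lower, and averaging probe sets gave 474 (215 and 259). The fit on 4 arrays gave 1786 (719 and 1067, 93 in the stress lists). With 1 array left out, the knockdown arrays included, 235 to 1786 genes were called, 111 to 719 higher, 104 to 1067 lower and 27 to 93 in the stress lists. The share of calls that were higher, 42.1%, was 56.1% or 32.5% when knockout-control array 1 or 2 was left out. With the replicate number of the titles as a replicate block, 410 genes were called (193 and 217, 38 in the stress lists). Same-numbered arrays deviated together with correlations of 0.202 (WT and knockout-control), -0.147 and -0.502, so the numbers were not taken to pair arrays. Of these genes, 65 lost their call without the filter, 46 with the block, 40 when probe sets were averaged and 59 to 77 with 1 of the 4 compared arrays left out, and 85 kept it in all 6 fits. The cause of these moves was not tested. Arrays have no counting depth, and dim genes such as Ifi207 rest on signals near the floor.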
